A study of Mus musculus with 60 samples.

Results

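Prefrontal cortex of mice heterozygous for the K228E allele of Tbr1 (HT, Tbr1+/K228E) was compared with that of wild-type mice (WT), where every mouse had received fluoxetine, a selective serotonin reuptake inhibitor. The comparison took all 20 fluoxetine libraries of the 60 in the series by their genotype label, in 4 groups of 5: HT females, HT males, WT females and WT males. All mice carried the label C57BL/6J, took in the drug with the dam's milk between postnatal days 3 and 24, for 3 weeks, and were analysed at day 25. Sex was a blocking factor, and since no vehicle library entered, the values describe how the genotypes differed under the drug and not what the drug itself changed. HT and WT mice of the same age under lithium, 20 libraries with none in common, are given beside them where this bears on a gene. No litter, dam or batch appears in the labels, so the p-values reflect only the spread among these libraries, and pups raised by the same dam would also share their exposure.

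Tbr1 encodes a T-box transcription factor of early-born glutamatergic neurons of the cortex, where it specifies layer 6 corticothalamic neurons and subplate and holds back layer 5 subcerebral identity by repressing Fezf2 and Bcl11b. Reelin of Cajal-Retzius cells, the NMDA receptor subunit Grin2b and the autism-associated gene Auts2 are among its reported targets. Loss-of-function and missense variants of TBR1 are known in autism, and the lysine changed by K228E lies in the DNA-binding T-box. Fluoxetine blocks the serotonin transporter Slc6a4, which thalamocortical axons also carry for a time after birth.

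Values are normalised reads, the reads of a gene divided by a size factor for the library, and the 20 libraries held 23930164 to 32945712 reads (median 28004894). Libraries of a group correlated at 0.985 to 0.99, and sex genes matched the label in 20 of 20. Markers of cortical projection neurons were present throughout: Slc17a7, the vesicular glutamate transporter of cortex, ranged from 46324 to 60286 normalised reads, Neurod6 from 1948 to 3146 and Emx1 from 449.6 to 597. The K228E change itself cannot be read from gene-level values.

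Tbr1 (ENSMUSG00000035033, GRCm38 chr2:61802930-61814114, plus strand) was higher in HT. The 10 HT libraries held 3841 to 5238 normalised reads of Tbr1 (median 4742) and the 10 WT libraries 3191 to 3839 (median 3669). Every HT library lay above every WT library, the lowest HT library by a narrow margin. HT females had 4934 ± 251 (SD, n = 5) and WT females 3738 ± 90.6, and HT males had 4432 ± 409 and WT males 3559.7 ± 223. The difference was 0.36 ± 0.04 (SE) on the log2(value + 1) scale, with a 95% interval of 0.28 to 0.43 and an adjusted p of 1.92e-05 by limma with Benjamini-Hochberg adjustment, and it passed the same test in females (0.40, adjusted p = 0.00143) and in males (0.31, adjusted p = 0.0218). The call in males was lost without HT male 2 or 5 or WT male 1, 3, 4 or 5. In lithium-treated mice the difference was 0.47 ± 0.11 (adjusted p = 0.174 by limma). The value counts RNA of both alleles together, and in bulk tissue more cells of a type cannot be told apart from more RNA per cell, which holds for every gene below.

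The start of Tbr1 is shown because its own RNA was among the clearest differences. The stretch below is the RefSeq promoter of GRCm38.p6 at chr2:61804203-61804502 on the plus strand. It holds 250 bases before the RefSeq start (61804453) in lower case and the first 50 transcribed bases in capitals. The window lies inside the GENCODE gene given above, which starts at 61802930, and not upstream of it.
Tbr1: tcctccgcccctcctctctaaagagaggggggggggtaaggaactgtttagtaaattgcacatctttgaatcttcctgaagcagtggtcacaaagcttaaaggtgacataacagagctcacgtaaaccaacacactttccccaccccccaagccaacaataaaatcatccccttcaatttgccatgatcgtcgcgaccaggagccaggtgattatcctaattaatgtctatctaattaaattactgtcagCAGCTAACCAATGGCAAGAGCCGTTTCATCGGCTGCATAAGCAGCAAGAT
The T-box element AGGTGTGA, searched on both strands (TCACACCT on the other), was not found in this window. It was in none of the 34 promoter windows of the 28 called genes (defined in the next paragraph) with a RefSeq match, and in 133 of 15682 windows of all genes tested (0.848%). A match or its absence is a description of these letters in this window only.

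Across the transcriptome, 35 of 16962 tested genes (0.206%) were called at an adjusted p below 0.05 by limma, 15 higher in HT (0.0884%) and 20 lower (0.118%). At an unadjusted p below 0.05 there were 1221 genes (7.20%), and at one below 0.001 there were 109 (0.643%). The called differences were small: the median size without regard to sign was 0.27 on the log2 scale against 0.037 over all tested genes, from 0.10 for the actin-binding coronin Coro1c to 1.18 for the T-cell surface protein Cd7. The signed median over all tested genes was -0.00. Only 8 genes of all those tested had HT and WT ranges of 10 libraries each that did not overlap (0.0472%), and all 8 were called: Tbr1, Tshz2, Plcxd2, Dpp4, Vwc2l and Necab1 were higher in HT and Ipcef1 and 5330416C01Rik lower. The last called genes were N4bp3, Vstm2b and Atp2b4 (adjusted p = 0.0485), and the first outside were Etv1 and Kcnk9 (adjusted p = 0.0598) and Lpl (adjusted p = 0.0612).
The count depended on single libraries. It ranged from 16 to 42 with each left out, and fell by over 1.5 times without HT female 1 (23), 2 (21), 3 (16) or 4 (20), HT male 2 (23), WT female 1 (23) or 3 (17), or WT male 5 (22). All 35 kept their direction and 16 their call in each of the 20 fits, among them Tbr1, Tshz2, Plcxd2, Necab1, Fndc9, Trhr, Myl4, Ppfia4, Ipcef1, Ext1, Arhgap25, Vangl2, Cd7, Garnl3 and 5330416C01Rik. In contrast, 12 were called in fewer than 10 of these fits: Coq8a and Dcbld2 in 2, N4bp3, Rhou and Vstm2b in 3, Col5a1, Alkal2 and Nptx1 in 4, Atp2b4 in 5, Man1a and 2610028E06Rik in 6 and Atp4a in 7. Vwc2l was called in 10, Coro1c in 11 and Arhgef28 in 12.

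**Figure D1:**
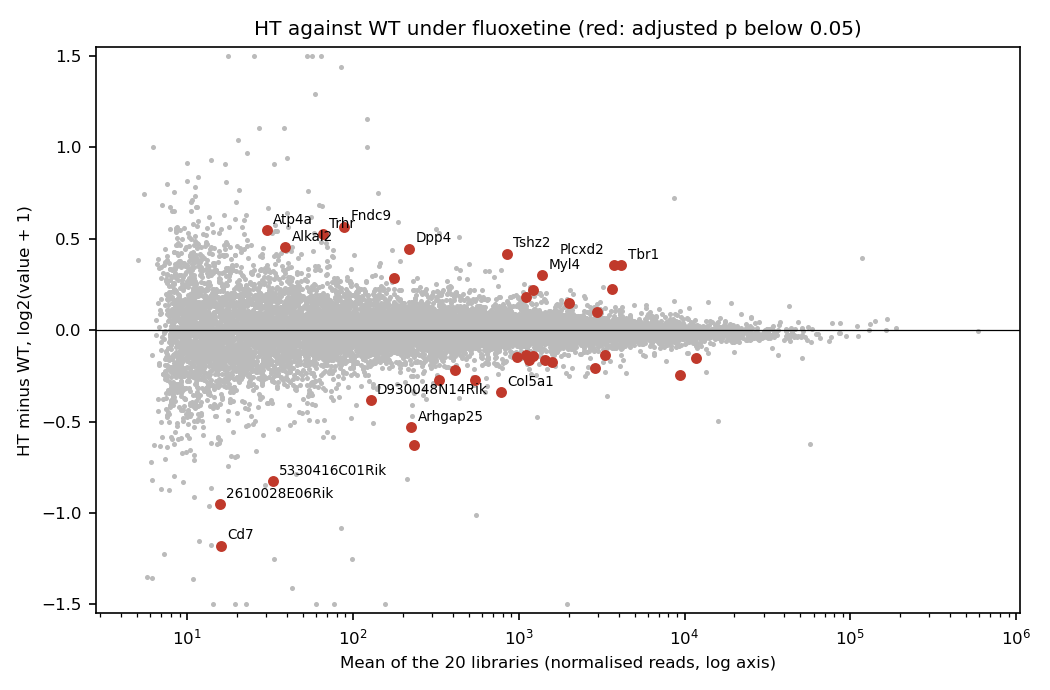
Difference of HT from WT under fluoxetine on the log2(value + 1) scale against the mean over the 20 libraries (log axis), 1 point per tested gene. The 35 called genes are red, 15 above and 20 below 0; points beyond 1.5 in either direction (12 genes, none called) are drawn at the edge.

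Among genes of projection neuron types, Tshz2 of the layer 5 list and Plcxd2 and Whrn of the upper-layer list were called higher in HT. Sla of the layer 6 list was called lower, and the other members of these lists were not called. Tshz2, a teashirt zinc-finger transcription factor marking a class of deep-layer neurons that send short axons, had the smallest p of all genes. Its HT libraries held 919 to 1019.8 normalised reads (median 962) and its WT libraries 672 to 838 (median 716), and the ranges were well apart. The log2 difference was 0.42 ± 0.03 (SE; adjusted p = 2.53e-07), nearly equal in females (0.43) and males (0.41). Plcxd2, a phospholipase C-like protein of the upper-layer list, held 3782 to 4509 normalised reads in HT and 2779 to 3625 in WT, again without overlap, with a log2 difference of 0.36 ± 0.04 (adjusted p = 0.000114). Whirlin (Whrn), a PDZ scaffold also on that list, was higher by 0.18 ± 0.03 (adjusted p = 0.0211), with overlapping ranges of 1085 to 1262 and 979 to 1121. Sla, a Src-like adaptor protein on both the layer 6 and the reported Tbr1 target lists, was lower in HT by a log2 difference of -0.27 ± 0.05 (adjusted p = 0.0231), at 422 to 541 normalised reads against 480.3 to 649.6 in WT.
The promoter of Tshz2 is printed as that of the gene with the strongest evidence of a difference, from GRCm38.p6 at chr2:169632259-169632558 on the plus strand, with the first 50 transcribed bases in capitals.
Tshz2: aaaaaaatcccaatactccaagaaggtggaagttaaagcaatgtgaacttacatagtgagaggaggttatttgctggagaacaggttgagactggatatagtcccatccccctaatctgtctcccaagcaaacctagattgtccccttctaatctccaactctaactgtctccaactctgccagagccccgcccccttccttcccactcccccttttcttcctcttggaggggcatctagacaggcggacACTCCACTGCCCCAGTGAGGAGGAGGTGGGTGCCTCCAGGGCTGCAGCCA
No T-box element was found here either.

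Calls in the layer lists are given beside the share over all tested genes, 0.206%. Of 22 tested genes of layer 6 and subplate, 1 was called (Sla). At an unadjusted limma p below 0.05, 6 were lower and none was higher, against 3.76% and 3.44% of all genes. The list's median log2 difference was -0.10, and 17 of its 22 genes lay below 0. The 6 were Sla, the neurotensin receptor Ntsr1 of corticothalamic neurons, Hs3st4, Foxp2, Cplx3 and Sulf1. Ntsr1 held 237 to 329.8 normalised reads in HT and 283 to 406 in WT, a log2 difference of -0.29 ± 0.07 that did not pass (adjusted p = 0.104). The median of the same list under lithium was -0.15. Of 18 layer 5 genes, Tshz2 was called, and 3 were higher and 2 lower at the unadjusted level (median 0.03). Of 20 upper-layer genes, Plcxd2 and Whrn were called, with 3 higher and 3 lower at the unadjusted level (median 0.04). The ETS factor Etv1 of layer 5 missed the threshold at a log2 difference of 0.17 ± 0.04 (adjusted p = 0.0598).
None of 34 projection neuron fate factors was called, against 0.206% of all tested genes. At the unadjusted level 3 were higher and 4 lower, and their median was 0.01. Of 15 reported Tbr1 targets, Sla alone was called. The others at an unadjusted p below 0.05 were Auts2 (-0.09 ± 0.02, adjusted p = 0.112) and the Wnt ligand Wnt7b (-0.14 ± 0.04, adjusted p = 0.312), which were lower, and Cdh8, Bhlhe22 and Cd44, which were higher. The list's median was -0.00. None of 8 Cajal-Retzius markers passed the unadjusted level, which 7.2% of all tested genes passed. Among 40 autism risk genes Tbr1 was the only call, and the rest of that list held no member higher and 3 lower at the unadjusted level, among them Auts2 and Med13l.

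**Figure D2:**
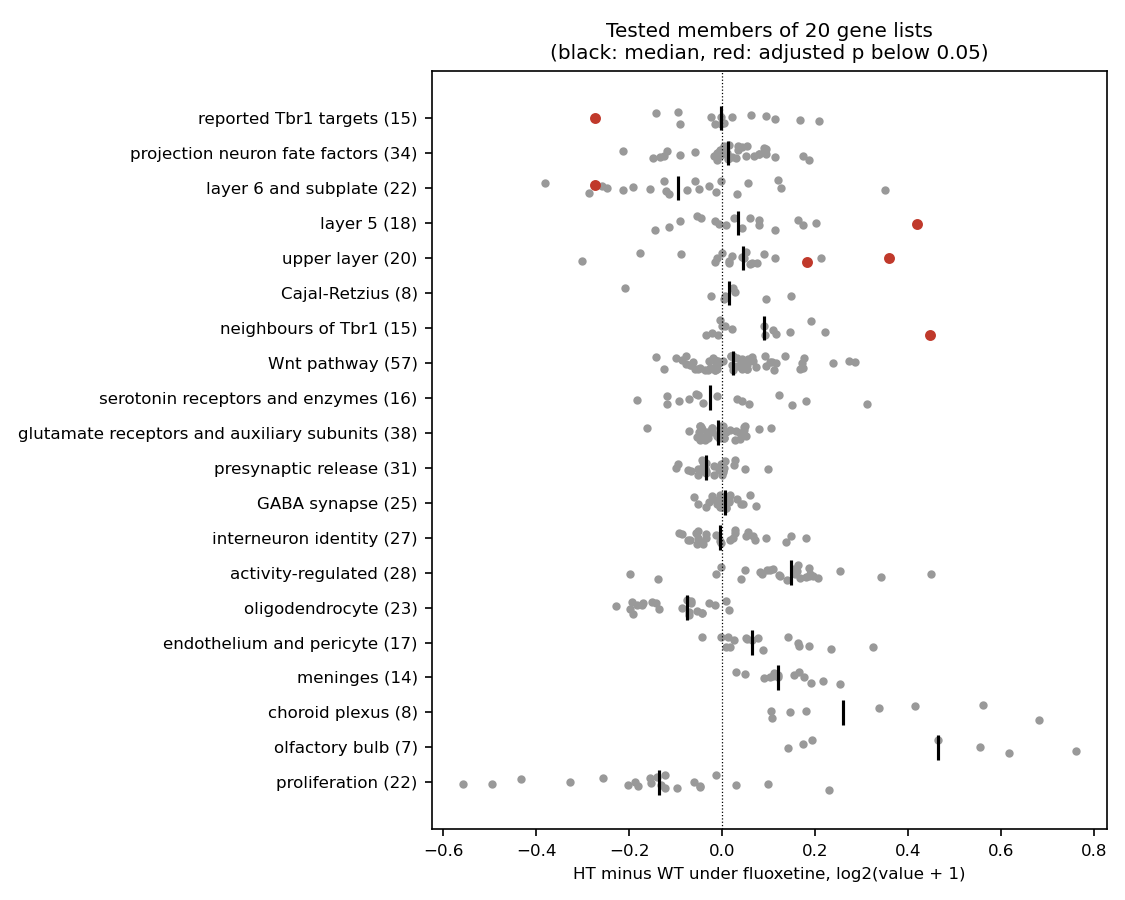
Log2 difference of HT from WT under fluoxetine for each tested member of 20 gene lists, with the number tested in brackets. Black bars are list medians, and red points are called genes; the layer 6 and subplate median lies at -0.10 and the activity-regulated median at 0.15.

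The next called genes are a receptor, a ligand and calcium-handling proteins, grouped by role for reading only. Trhr, the G-protein-coupled receptor of thyrotropin-releasing hormone, was higher in HT, with 57.6 to 89.2 normalised reads (median 84.6) against 44.1 to 62.0 in WT (median 52.0). The ranges overlapped at the lowest HT values, and the log2 difference was 0.53 ± 0.09 (adjusted p = 0.0152). Alkal2, a ligand of the receptor tyrosine kinase ALK, was higher by 0.46 ± 0.09 (adjusted p = 0.0457) at levels of 34.2 to 52.4 in HT and 27.3 to 41.2 in WT. Necab1, a neuronal EF-hand calcium-binding protein, held 3661 to 4768 normalised reads in HT and 2989.5 to 3566 in WT. The groups did not overlap, and 1 HT male (4768) stood above the others. The log2 difference was 0.23 ± 0.04 (adjusted p = 0.0174). Atp2b4, a plasma membrane calcium pump, was lower by a log2 difference of -0.15 ± 0.03 (adjusted p = 0.0485).
At synapses, Ppfia4, a presynaptic scaffold of the liprin-alpha family, was higher by 0.15 ± 0.03 (adjusted p = 0.0152), and Nptx1, a secreted pentraxin that clusters AMPA receptors, was lower. Nptx1 held 6668 to 9844 normalised reads in HT and 9293 to 11779 in WT, with partial overlap, and a log2 difference of -0.24 ± 0.05 (adjusted p = 0.0485). No member was called among 38 glutamate receptor genes, 38 postsynaptic scaffold and adhesion genes, 31 presynaptic release genes or 25 GABA synapse genes. The same held for 27 interneuron genes, 39 potassium channel genes and 13 sodium channel genes. Over all tested genes 0.206% were called, so lists of this size can hold no call without differing from other genes. List medians lay between -0.03 (presynaptic release) and 0.00. Of the members of these lists the kainate receptor Grik3 had the smallest p, at -0.16 ± 0.04 (adjusted p = 0.112), while the potassium channel gene Kcnk9, which missed the threshold more narrowly, is not on the potassium channel list.
For the system the drug acts on, none of 16 tested genes of serotonin receptors and enzymes was called, against 0.206% of all tested genes. The inhibitory serotonin receptor Htr1a held 542 to 683 normalised reads in HT and 590.3 to 798 in WT, a log2 difference of -0.18 ± 0.05 that did not pass (adjusted p = 0.113). Htr2a (-0.12) and S100a10 (0.15 ± 0.05, adjusted p = 0.395) were the other members at an unadjusted p below 0.05.

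Further called genes act in the cytoskeleton, small GTPase signalling, cell polarity or the extracellular matrix, again grouped for reading only, and those lower in HT come first. Arhgap25, a GTPase-activating protein for Rac, held 124 to 235 normalised reads in HT and 227 to 369 in WT and was lower by a log2 difference of -0.53 ± 0.10 (adjusted p = 0.0152). Ipcef1, which interacts with cytohesin exchange factors for Arf, had ranges that just missed each other, 2516 to 2833 against 2843 to 3329, at a log2 difference of -0.20 ± 0.03 (adjusted p = 0.00107). Ext1, which polymerises heparan sulphate chains, held 1409.8 to 1613 in HT and 1591 to 1758 in WT, a log2 difference of -0.17 ± 0.03 (adjusted p = 0.00214).
Vangl2, a core planar cell polarity protein, was lower by a log2 difference of -0.22 ± 0.04 (adjusted p = 0.0174), as were the collagen chain Col5a1 (-0.34 ± 0.07), the guanine nucleotide exchange factor Arhgef28 (-0.16 ± 0.03) and the Wnt-inducible small GTPase Rhou (-0.16 ± 0.03). The Wnt list held neither Vangl2 nor Rhou, and none of its 57 genes was called, against 0.206% of all tested genes. At the unadjusted level 8 of them were higher and 1 lower, against 3.44% and 3.76% of all genes. In the other direction, Myl4, a myosin light chain, was higher at 1388 to 1659.9 against 1027 to 1394 in WT (0.30 ± 0.05, adjusted p = 0.0152), and Coro1c by 0.10 ± 0.02 (adjusted p = 0.0278). Fndc9, a fibronectin type III domain protein, held 87.1 to 118 in HT and 55.6 to 90.7 in WT (0.57 ± 0.09, adjusted p = 0.00883). The secreted protein Vwc2l was higher without overlap, at 175 to 221 against 139.9 to 174 (0.28 ± 0.06, adjusted p = 0.0302), and the Golgi mannosidase Man1a was higher by 0.22 ± 0.05 (adjusted p = 0.0457).
The gene-naming rule left out 10 called genes for a low mean, a predicted-gene symbol or a smaller fold, and they are given here. Cd7, at 5.24 to 14.7 normalised reads in HT and 10.7 to 32.2 in WT, was lower by a log2 difference of -1.18 ± 0.21. The proton pump subunit Atp4a (0.55 ± 0.11) and Alkal2 were higher. The RIKEN transcripts 5330416C01Rik (-0.83 ± 0.11, ranges apart at 20.1 to 27.2 and 31.5 to 56.6), 2610028E06Rik (-0.95 ± 0.20) and D930048N14Rik (-0.38 ± 0.07) were lower. So were the coenzyme Q kinase Coq8a (-0.15 ± 0.03), the transmembrane protein Dcbld2 (-0.13 ± 0.03), Garnl3 (-0.14 ± 0.03) and Vstm2b (-0.14 ± 0.03). Of the 35, 5 had a mean below 50 normalised reads, where the pseudocount of 1 shrinks a fold.

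**Figure D3:**
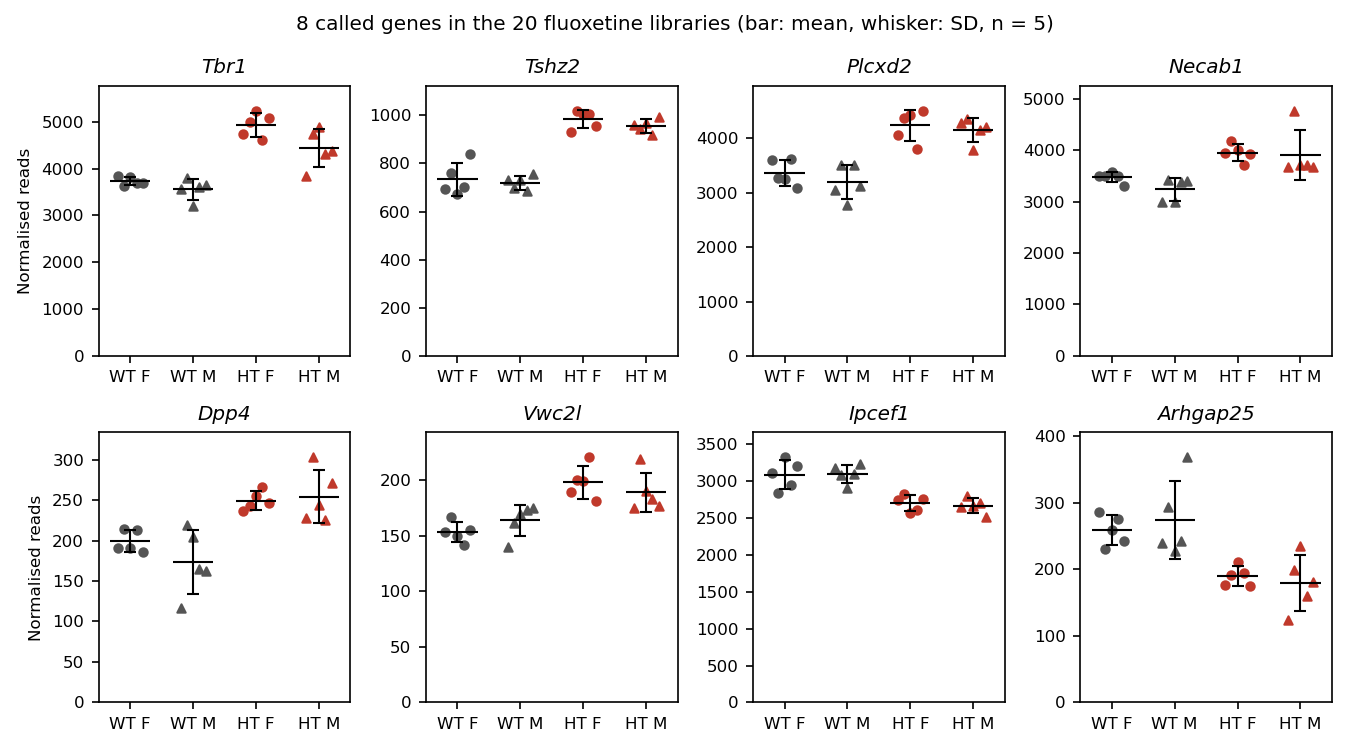
Normalised reads in each of the 20 fluoxetine libraries for 8 called genes, by genotype and sex (circles females, triangles males; grey WT, red HT), with the mean and SD of 5 libraries. HT and WT points do not overlap for Tbr1, Tshz2, Plcxd2, Necab1, Dpp4, Vwc2l and Ipcef1, while single libraries cross for Arhgap25.

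A pair of called genes on chromosome 11 start head to head. N4bp3, which binds the ubiquitin ligase Nedd4, lies on the minus strand at chr11:51643063-51650842, and D930048N14Rik lies on the plus strand at chr11:51650954-51657681 in the GENCODE annotation of GRCm38. Both were lower in HT. N4bp3 held 247 to 345 normalised reads in HT (median 302) and 307 to 405 in WT (median 367), and D930048N14Rik held 85.9 to 144 (median 109.9) and 121 to 156 (median 146). The groups overlapped for both, with log2 differences of -0.27 ± 0.06 (adjusted p = 0.0485) and -0.38 ± 0.07 (adjusted p = 0.0184). N4bp3 was called in 3 and D930048N14Rik in 19 of 20 leave-one-out fits. In GENCODE 112 bases separate them, whereas the RefSeq start of N4bp3 lies 119 bases inside the RefSeq start of D930048N14Rik, so that these transcripts overlap on opposite strands. The labels' protocols name a stranded mRNA kit, but whether the counting used the strand is not given in the sources used here. How reads of the RefSeq overlap were divided between these genes was not tested. Their windows are shown since they come from the same stretch, D930048N14Rik from chr11:51650704-51651003 on the plus strand and N4bp3 from chr11:51651024-51651323 on the minus strand, capitals again marking the first 50 transcribed bases.
D930048N14Rik: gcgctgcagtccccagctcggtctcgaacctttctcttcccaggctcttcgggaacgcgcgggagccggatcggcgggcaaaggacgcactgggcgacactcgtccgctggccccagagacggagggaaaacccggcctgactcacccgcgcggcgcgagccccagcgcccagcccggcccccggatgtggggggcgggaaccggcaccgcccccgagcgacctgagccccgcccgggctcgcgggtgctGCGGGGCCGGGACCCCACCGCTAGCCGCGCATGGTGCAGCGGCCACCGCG
N4bp3: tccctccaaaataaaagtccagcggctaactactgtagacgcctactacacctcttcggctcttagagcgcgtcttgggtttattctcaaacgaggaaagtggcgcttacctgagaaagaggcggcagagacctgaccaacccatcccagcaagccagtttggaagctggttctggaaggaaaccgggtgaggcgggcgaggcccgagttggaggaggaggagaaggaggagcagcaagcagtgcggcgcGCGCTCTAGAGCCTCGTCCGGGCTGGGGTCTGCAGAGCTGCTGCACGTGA

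The neighbourhood of the mutated gene held a second call. Dpp4, a cell-surface peptidase that removes dipeptides from chemokines and incretins, lies 516 kb from Tbr1 at chr2:62330073-62412231 on the minus strand. It held 225 to 303 normalised reads in HT (median 245) and 117 to 219 in WT (median 191), with no overlap, and a log2 difference of 0.45 ± 0.09 (adjusted p = 0.0239, called in 15 of 20 leave-one-out fits). Of the 15 tested genes that start within 2 Mb of Tbr1, 1 was called, Dpp4, against 0.206% of all tested genes. At an unadjusted p below 0.05, 6 of the 15 were higher and none was lower, against 3.44% of all genes higher. The other 5 were Rbms1 (0.11 ± 0.03), the RNA sensor Ifih1 (0.19 ± 0.06), the bicarbonate transporter Slc4a10 (0.09 ± 0.03), Tank (0.09 ± 0.04) and the membrane protease Fap (0.22 ± 0.10). Their adjusted p-values lay from 0.305 to 0.659. The median of the 15 was 0.09, while the nearest neighbour, the proteasome subunit Psmd14, was at -0.00. In a window of 5 Mb, 7 of 40 tested genes were higher at the unadjusted level, none was lower, and the median was 0.01. Under lithium the differences of Dpp4 (0.35), Fap (0.41), Ifih1 (0.21) and Slc4a10 (0.17) had the same direction and passed the unadjusted limma level, none of them after adjustment.

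**Figure D4:**
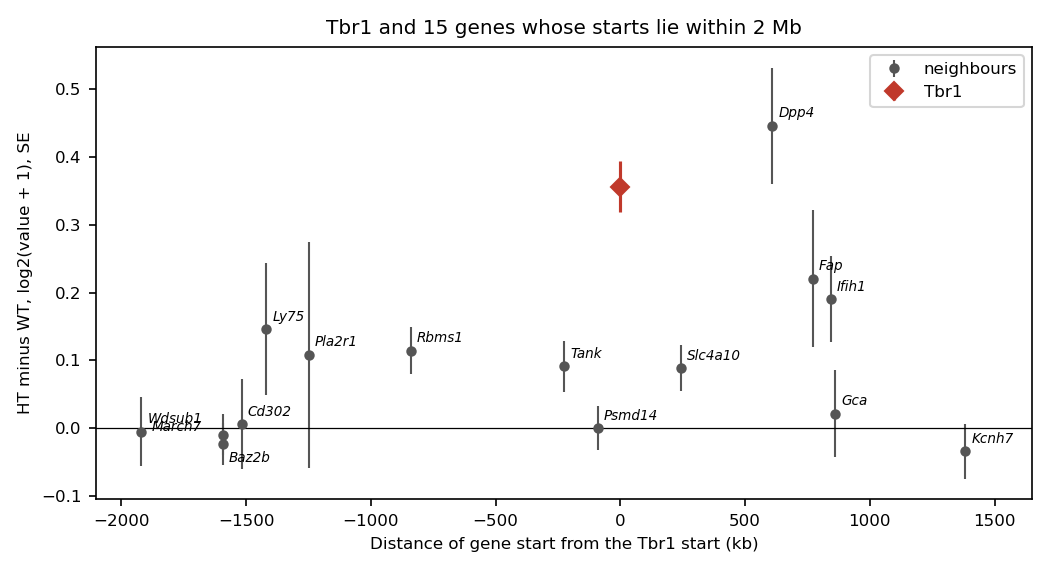
Log2 difference of HT from WT under fluoxetine (with SE) for Tbr1 and the 15 tested genes starting within 2 Mb, by distance of the gene start from that of Tbr1. Dpp4 at 609.3 kb is the only neighbour called, and the genes from Rbms1 to Ifih1 lie above 0 except Psmd14, at -0.00.

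In females alone 2 genes were called (0.0118%), Tshz2 and Tbr1, and in males alone 7 (0.0413%), among them these 2, Plcxd2, Vangl2 and 5330416C01Rik. The unadjusted limma level was passed by 731 genes in females (4.31%) and 1055 in males (6.22%). Each of the 35 genes went the same way in females and males, compared with 54.5% of all tested genes, although a call in the pooled test favours such genes. The difference between the sexes itself was called for 0 genes by edgeR and for 1 by DESeq2, Xist (log2 1.24, males minus females). Xist is one of the genes used to tell the sexes apart in the label check, so its male and female levels are not alike. By limma 0 genes were called at an adjusted p below 0.05 (smallest 0.999), and 513 had an unadjusted p below 0.05 (3.02%). Of the 35 genes, 3 passed the unadjusted level in this test: Vangl2, at -0.14 in females and -0.30 in males, Whrn, at 0.25 and 0.11, and Atp2b4, at -0.23 and -0.07. The axon guidance receptor Robo2 came first by the naming rule, at -0.17 in females and 0.09 in males (adjusted p = 0.999 by limma), followed by Saysd1 and Stard4. The male count ranged from 1 to 20 over left-out libraries. It was 20 without HT male 3, and 1 to 4 without HT male 1 (2), 2 (2) or 5 (1) or WT male 1 (3), 3 (1), 4 (4) or 5 (1). The female count rose to 4 without WT female 4 or WT male 3.

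Under lithium, in libraries that share none with the fluoxetine comparison, 33 of the 35 genes had the same sign, against 53.7% of all tested genes, namely all 15 higher and 18 of 20 lower ones. Nptx1 (0.03 ± 0.12) and Garnl3 (0.00 ± 0.08) were the exceptions. With the same sign, 15 of the 35 also had an unadjusted limma p below 0.05 under lithium, against 8.25% of all genes; regardless of sign, 11.4% of genes passed that level under lithium. They included Tbr1, Tshz2, Plcxd2, Necab1, Dpp4, Vwc2l, Myl4, Whrn, Man1a and Alkal2, which were higher, and Vangl2, Col5a1, Atp2b4 and 2610028E06Rik, which were lower. Plcxd2 was the single gene called under lithium (0.36 ± 0.06, adjusted p = 0.00772, 0.00572% of genes), with the value it had under fluoxetine. The size was smaller under lithium for 28 of the 35, which selection on the fluoxetine values favours. Tshz2 differed by 0.42 under fluoxetine and 0.16 ± 0.07 under lithium.
The genotype by drug interaction called no gene: limma gave 0 (smallest adjusted p 0.898) with 536 of 17472 genes at an unadjusted p below 0.05 (3.07%), and edgeR and DESeq2 gave 0. Of the 35 genes, Tshz2, Cd7, Coro1c, Dcbld2 and Atp4a passed the unadjusted limma level, each with an adjusted p of 0.898. The 3 genes the naming rule took from this test were Gripap1, higher by 0.10 under fluoxetine and at -0.05 under lithium (adjusted p = 0.898 by limma), Cep85 and Hspbap1. Lithium libraries were more variable. The median within-group SD on the log2 scale was 0.11 under fluoxetine and 0.17 under lithium over all genes, and 0.11 and 0.26 over the 35. Under lithium the striatum list mean (log2 scale) was 10.2 in HT female 1, 10.4 in WT female 2 and 10.3 in WT male 2. It was 7.81 to 8.41 in the other lithium libraries. The olfactory bulb list median was -1.03 under lithium and 0.46 under fluoxetine. How neighbouring tissue bears on the lithium values was not tested. With both drugs in a single fit that shares the spread, 2 genes were called under fluoxetine (0.0114%), Tshz2 and Plcxd2.

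**Figure D5:**
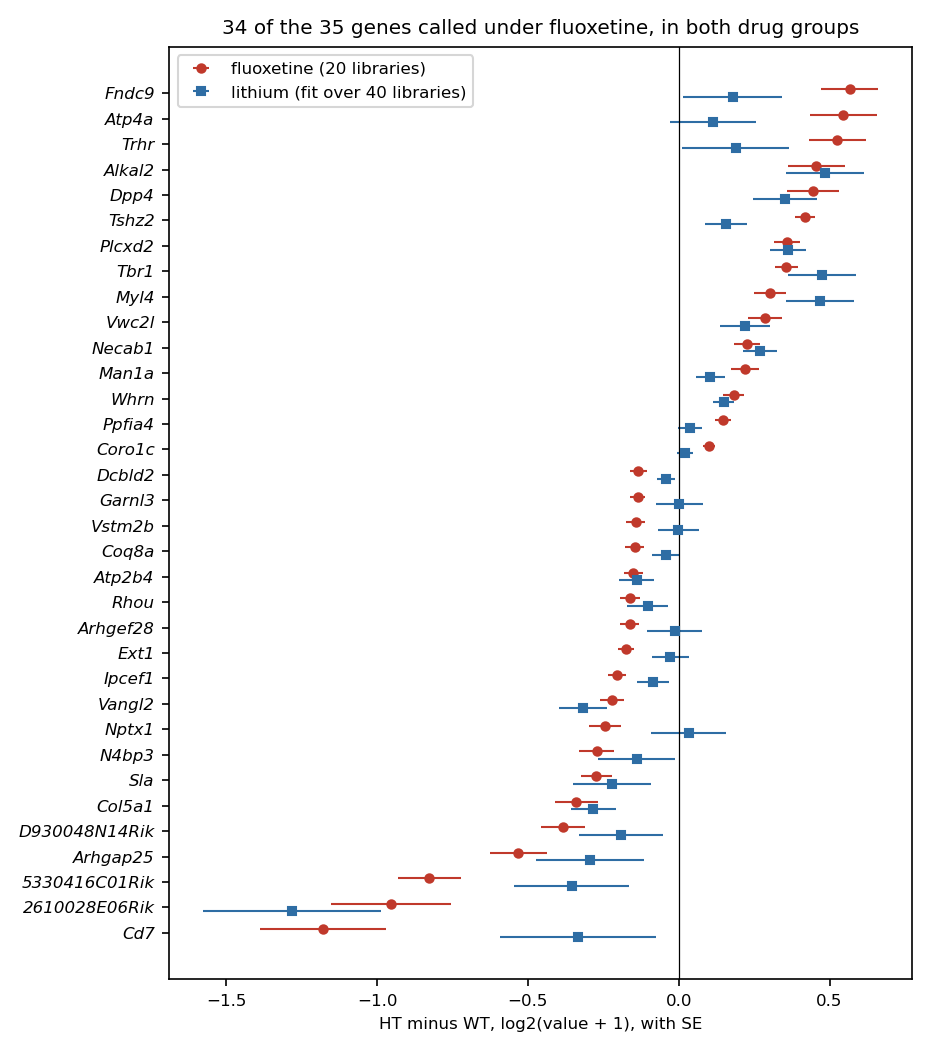
Log2 difference of HT from WT with SE for 34 of the 35 genes called under fluoxetine, in fluoxetine (red circles) and lithium (blue squares) mice. Among the genes drawn the signs differ for Nptx1 and Garnl3 alone, and error bars are wider under lithium.

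None of the following lists held a called gene, against 0.206% of all tested genes called. For comparison with their counts, 3.44% of all tested genes were higher and 3.76% lower at an unadjusted limma p below 0.05. Of 28 activity-regulated genes none was called, 8 were higher and 2 lower at an unadjusted p below 0.05, and 24 lay above 0 (median 0.15, and -0.03 under lithium). Examples are the orphan nuclear receptor Nr4a3 (0.25 ± 0.08, adjusted p = 0.352) and Bdnf (0.19 ± 0.06, adjusted p = 0.361), whereas Jun and Nptx2 were lower at that level. Of 23 oligodendrocyte genes 21 lay below 0 (median -0.08), with 5 lower at the unadjusted level, such as the myelin enzyme Cnp (-0.17 ± 0.07, adjusted p = 0.558). The mean of this list (log2 scale) was lowest in HT male 2, at 9.97, with the other HT libraries at 10.21 to 10.62. Its group medians were close, 10.48 in HT and 10.51 in WT. Of 17 genes of endothelium and pericytes, 6 were higher at the unadjusted level, led by the pericyte regulator Rgs5 (0.23 ± 0.06, adjusted p = 0.108). Of 22 proliferation genes, 19 lay below 0 (median -0.14), and Cdk1 was at -0.56 ± 0.14 (adjusted p = 0.108). Cdk1 was low throughout, at a mean of 15.3 normalised reads in HT and 22.8 in WT. Astrocyte (median -0.02) and microglia (median -0.02) lists had 1 member each at the unadjusted level.
Markers of neighbouring tissue were not called either, and HT and WT overlapped in the summed level of each of these lists. Their part in the lists above was not tested beyond the fits given next. All 8 tested choroid plexus genes lay above 0 (median 0.26), and the summed level of the 9 in the table was 197 to 365 normalised reads in HT (median 254) and 155 to 268 in WT (median 189), with Otx2 at 0 in some libraries. Transthyretin (Ttr), the main secreted product of choroid plexus, was at 22.4 to 163 normalised reads in HT and 13.6 to 84.9 in WT. All 14 meninges genes lay above 0 (median 0.12), and 2 of them, like 1 choroid plexus gene, passed the unadjusted level. All 7 olfactory bulb genes also lay above 0 (median 0.46), but none of them at an unadjusted p below 0.05. Their sums were 161 to 3884 in HT and 219 to 2381 in WT. The 14 tested striatum genes had a median of -0.01, 3 higher and 3 lower at the unadjusted level, with summed levels over 15 genes of 12254 to 14575 in HT and 13051 to 14476 in WT.
With the choroid plexus mean as a covariate, a fit chosen after the data were seen, the count of called genes fell from 35 to 8 (among them Tbr1, Tshz2, Plcxd2, Trhr, Myl4, Ipcef1 and 5330416C01Rik), while the median size of the 35 differences was 0.27 with and without it and no sign changed. The choroid plexus mean itself tended to be higher in HT (median 4.14, against 3.89 in WT, log2 scale), so this fit cannot fully separate it from genotype. With that covariate the meninges median was -0.01 and the olfactory bulb median -0.30, the layer 6 and subplate median was -0.13, the oligodendrocyte median -0.17 and the activity-regulated median 0.06. With the olfactory bulb mean as covariate 57 genes were called, and with the striatum mean alone, also chosen after the data were seen, 48, each time with all 35 among them.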

How the data were processed

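In the deposited table each gene has 1 signal per library, its reads divided by the authors' size factor for that library. Salmon 0.11.2, R 3.6.0, DESeq2 1.19.11 and GRCm38 are named per the submitters' processing notes, without role or order; a TruSeq stranded mRNA kit is named per the labels' protocols. Of 18088 identifiers 18077 matched a symbol, from GENCODE vM21 or, where absent there, from a second list of gene names. All values (100%) were whole multiples of their column's smallest value at a tolerance of 1e-06, so reads were recovered for count tests, with size factors of 0.818 to 1.09. No 2 libraries of a group agreed within counting noise (chi-square per degree of freedom of 2.99 or more in 40 pairs).

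Genes at 10 or more in at least 5 of the 20 libraries were tested as log2(value + 1), a scale that understates changes of low genes, with limma 3.58.1 in R 4.3.3 (mean-variance trend, genotype plus sex, two-sided). P-values were adjusted by Benjamini-Hochberg over all genes tested, and an adjusted p below 0.05 is a call. The sexes and their interaction used 4 group means. Genotype by drug, and HT against WT under lithium, used 40 libraries, 17472 genes and sex as a block. The script was tested on simulated data. Promoters come from RefSeq.

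The members and gene lists were chosen with earlier results of these data known. Named genes are Tbr1, up to 12 called genes per direction with the largest change, a mean of 50 or more, no sign change between the sexes and no predicted-gene symbol, up to 4 called members per list or otherwise the 2 with the smallest p, and up to 3 per interaction where fewer were called. Genes outside the rule are said to be so or were chosen after their values were seen, as were the other list members named by their unadjusted p. A few genes that met these rules are left out of the text. Alternatives were pseudocounts of 0.5 and 5, no filter, a mean of at least 100, quantile normalization, edgeR 4.0.16, DESeq2 1.42.0, a replicate block, no trend, library weights, olfactory bulb or striatum and choroid plexus covariates, a fold of 1.2, a shared fit with lithium, a 5 Mb window and leaving out each library. The striatum and choroid plexus covariates alone were added after the data were seen.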

Additional observations from a re-analysis of the deposited data

Results flagged for a closer look

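Single libraries stood apart within their group of 5 in 8 of the 136 gene and group combinations checked, where about 1 in 20 would do so by chance. Among HT males, replicate 2 held 1552 normalised reads of Man1a, with the other 4 between 1174 and 1254, and 4768 of Necab1, with the others between 3661 and 3716. HT male replicate 4 held 397.9 of Vangl2 (others 364 to 374), and HT male replicate 3 held 888.4 of Col5a1 (others 624 to 653). Each of these genes but Man1a and Necab1 was lower in HT, so these high libraries lay toward WT. Among WT females, replicate 2 was low for N4bp3 at 307.3 (others 361 to 373), replicate 4 low for Sla at 480.3 (others 605 to 650), and replicate 5 low for Necab1 at 3309 (others 3493 to 3566) and high for 2610028E06Rik at 28.1 (others 13.9 to 17.3).

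Of 20 checks on whole libraries, 4 stood apart. WT female replicate 1 held 31320116 reads (others 29916606 to 30303108). In HT female replicate 4 mitochondrially encoded genes took 5.676% of reads (others 4.91% to 5.11%). HT female replicate 5 had a striatum list mean of 8.141 on the log2 scale (others 7.93 to 7.98), and WT male replicate 1 a choroid plexus list mean of 3.668 (others 4.01 to 4.06).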

How the results depend on the processing

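The 35 called genes kept their direction under every alternative in which they were tested, and the count was 28 to 43 under other pseudocounts, filters, quantile normalization, edgeR (33, of which 32 shared), library weights and the replicate block. It was 94 with DESeq2 (all 35 among them), 57 with the olfactory bulb covariate, 48 with the striatum covariate alone, 20 without the trend, 19 at a fold of at least 1.2, 11 with striatum and choroid plexus covariates, 8 with the choroid plexus covariate alone and 2 in the shared fit with lithium. In females the count of 2 became 4 at a mean of at least 100, 5 with edgeR, 9 with DESeq2, 10 with library weights and 6 with the bulb covariate. In males the count of 7 became 17 with DESeq2, 2 with striatum and choroid plexus covariates and 4 with the choroid plexus covariate alone. Genotype by sex gave 1 with DESeq2. Leaving out each library gave 16 to 42 calls, 2 to 4 in females, 1 to 20 in males, 0 to 1 for genotype by sex (Gm9762 without HT female 1) and 0 to 0 for genotype by drug.

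The replicate numbers do not pair the libraries (10 pairs, correlations of deviations from -0.19 to 0.09, none over 0.1, and no HT library correlated best with its own number). With the replicate block 33 genes were called, 27 of them shared, and 3 in males, without Tbr1. Among named genes 9 results changed sign, all without a call. With striatum and choroid plexus covariates these were Zic1 (-0.059), Ddit3 (-0.0059), Shisa3 (-0.34), Eomes (-0.24) and Hba-a2 (-0.086). With the choroid plexus covariate alone they were Zic1 (-0.068), Shisa3 (-0.27), Eomes (-0.18) and Hba-a2 (-0.068). The cause was not tested. Called genes under a mean of 50 rest on few reads.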

Other observations

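Several called genes are known markers of near-projecting neurons, a deep-layer class without long-range targets. A list of 7 such markers was drawn up after the values were seen, partly because 3 of them were called, so it carries no test. All 7 lay above 0 in HT under fluoxetine, with a median log2 difference of 0.24 (0.19 under lithium). Tshz2 (0.42 ± 0.03, SE), Trhr (0.53 ± 0.09) and Vwc2l (0.28 ± 0.06) were called by limma. Lypd1, a modulator of nicotinic receptors, was at 0.22 ± 0.06 (adjusted p = 0.259) and Sla2 at 0.24 ± 0.10 (adjusted p = 0.604). The vesicular glutamate transporter Slc17a8 was at 0.14 ± 0.08 (adjusted p = 0.814) and Rapgef3 at 0.04 ± 0.04 (adjusted p = 0.908).

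Against 0.206% of all tested genes, called genes were 6 of 1046 on chromosome 1 (0.574%), 6 of 1278 on chromosome 11 (0.469%), 3 of 668 on chromosome 15 (0.449%), 2 of 513 on chromosome 16 (0.390%) and 5 of 1301 on chromosome 2 (0.384%). Chromosomes 13 (0.313%), 4 (0.296%) and 10 (0.249%) also lay above that share, and chromosomes 3, 9, 14, 17, 18, 19, X and Y held no call. At an unadjusted p below 0.001, 0.643% of all genes passed. Among autosomes chromosome 15 held 12 of 668 (1.80%) and chromosome 1 held 14 of 1046 (1.34%). Chromosomes 11 and 13 (0.939% each), 2 (0.769%) and 4 (0.690%) were also above that share. Besides Tbr1 and Dpp4, 5330416C01Rik and Arhgef28 lie 152.1 kb apart on chromosome 13 and were both lower, while Atp2b4 and Ppfia4 lie 495.7 kb apart on chromosome 1 and differed in opposite directions. None of 13 mitochondrially encoded genes was called, and their median was 0.01. At an unadjusted p below 0.05, mt-Atp8 (0.16 ± 0.04, adjusted p = 0.0746) and mt-Nd6 (0.14 ± 0.04, adjusted p = 0.255) were higher, and mt-Atp6 (-0.50 ± 0.21, adjusted p = 0.583) and mt-Nd3 (-0.47 ± 0.17, adjusted p = 0.453) were lower. The lowest value was that of mt-Co2 (-0.62 ± 0.33, adjusted p = 0.752).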
